A study of Mus musculus with 18 samples.

Results

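Foxa2 sites of wild-type mouse liver were placed in the chromatin of young liver, according to whether the midpoint of a site fell in a region called for lamin B1 only, for H3K9me3 only, for both, or for neither. The wild-type list held 4960 sites, of which 4912 lay on chromosomes 1 to 19 and were placed. Of these, 1385 fell in lamin B1 only, 587 in H3K9me3 only, 371 in both and 2569 in neither. Foxa2 was profiled by ChIP-Seq in livers of male C57BL/6 mice aged 12 weeks, 3 wild-type controls and 3 littermates lacking Zmpste24, the protease that matures prelamin A. Lamin B1 and H3K9me3 were profiled in livers of other male C57BL/6 mice, from an aged rodent colony, with 2 replicates at 3 months (young) and 2 at 21 months (old) for each antibody. The replicates were merged before regions were called, and each list gives positions without a signal, score or value per replicate. Intervals below are therefore 95% intervals that cover counting error only, sites are not replicates, and no difference between mice can be given. Since Foxa2 and the chromatin marks came from different animals, a shared position does not show that Foxa2 and a mark were on the same chromatin fibre.

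Foxa2 is a winged-helix transcription factor of hepatocytes. It is called a pioneer factor because it can bind its target sequence, the forkhead motif, on DNA wrapped around nucleosomes. Lamin B1 is a protein of the nuclear lamina, the meshwork under the inner nuclear membrane, and ChIP against it recovers DNA held at the nuclear periphery. H3K9me3 is the histone mark of constitutive heterochromatin and of silenced repeats and zinc finger gene clusters.

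Lamina-associated DNA is known to be poor in genes and in GC. The young lamin B1 regions used here did not have these properties. The lamin B1 only state covered 14.8% of the bases of chromosomes 1 to 19 but held 33.1% of 20780 protein-coding gene starts, and its 940 bp tiles, which are windows of the median width of a site laid across the genome, had a median GC content of 44.3%, against 41.5% in neither. H3K9me3 only covered 19.3% of the bases and held 8.81% of the starts, at a median GC content of 40.1%. The states are called by their marks below, and the first of them should not be read as gene-poor heterochromatin. The young H3K9me3 list, with 2784 regions, holds fewer than the study counts. Lamin B1 only and neither thus mean outside this list, and may include H3K9me3 regions that the study counted.

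The forkhead core is the word TGTTTAC, or GTAAACA on the opposite strand. The following stretches of the reference sequence (RefSeq, GRCm38.p6, plus strand) show where it lies in the site farthest inside each kind of region that holds the core, and in the site with the core nearest to the start of the albumin gene Alb as an example outside the regions. Capitals mark the core.
Lamin B1 only, chr10:96188335-96188455: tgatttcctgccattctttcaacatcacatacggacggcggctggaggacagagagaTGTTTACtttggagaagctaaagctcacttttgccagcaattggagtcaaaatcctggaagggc
H3K9me3 only, chr3:147962760-147962880: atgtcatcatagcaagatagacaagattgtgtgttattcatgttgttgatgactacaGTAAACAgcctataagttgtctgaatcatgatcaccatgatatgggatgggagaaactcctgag
Both, chr10:99460199-99460319: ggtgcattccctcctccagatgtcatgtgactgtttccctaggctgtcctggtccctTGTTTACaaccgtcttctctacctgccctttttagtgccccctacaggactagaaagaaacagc
Neither, chr5:90560862-90560982: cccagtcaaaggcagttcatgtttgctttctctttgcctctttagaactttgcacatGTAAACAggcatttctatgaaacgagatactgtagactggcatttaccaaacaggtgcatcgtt

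The lamin B1 only site in this set was 605 bp wide and intergenic. It lay 892 kb from the nearest edge of its region, chr10:94940001-97080000, and 51.7 kb from the start of Gm5426, the nearest protein-coding gene. The H3K9me3 only site was 1115 bp wide, also intergenic, 917 kb from the edge of chr3:146630001-148880000 and 1027 kb from the start of Adgrl2, which encodes an adhesion G protein-coupled receptor. The site in both was 528 bp wide, intergenic, 220 kb from the nearest edge and 197 kb from the start of Dusp6, a phosphatase of ERK kinases. The site in neither was 1818 bp wide and lay 100 kb from the start of Alb, with its midpoint 99 bases upstream of the start of 5830473C10Rik. The sites near Gm5426 and Alb overlapped a site called in the mutant, and those near Adgrl2 and Dusp6 did not. In old liver all 4 midpoints were in neither mark.

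Foxa2 sites were denser in young lamin B1 regions, with or without H3K9me3, and sparser where H3K9me3 was called alone. Lamin B1 only held 28.2% of the sites (Wilson interval 27.0 to 29.5%), or 3.91 sites per Mb, which is 1.91 times its share of the bases. The sites in both marks made up 7.55% (6.85 to 8.33%) on 4.68% of the bases, a density of 3.31 per Mb. H3K9me3 only held 12.0% of the sites (11.1 to 12.9%) at 1.27 per Mb, 0.618 times its share of the bases. The remaining 52.3% (50.9 to 53.7%) were in neither, which covered 61.2% of the bases at 1.75 sites per Mb. None of the 4 base shares lay inside the interval of the site share.

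**Figure D1:**
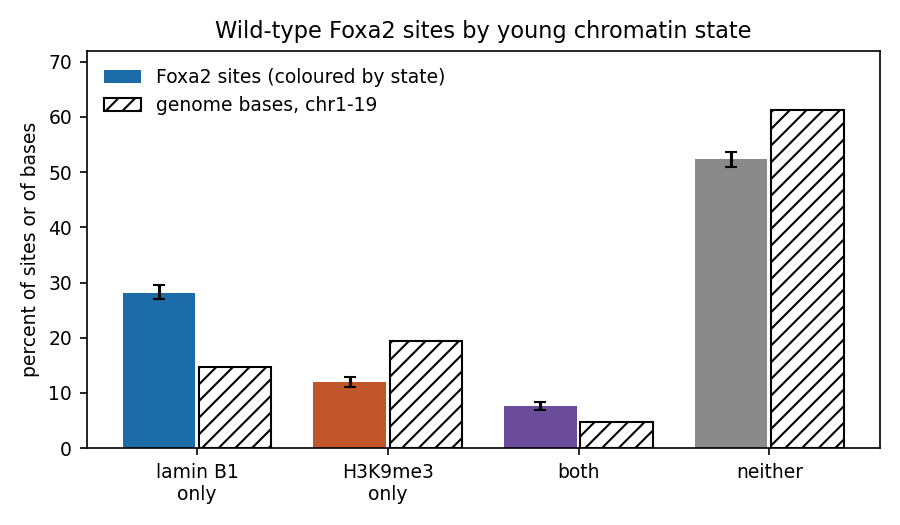
Share of the 4912 wild-type Foxa2 sites in each young chromatin state (coloured bars, with 95% Wilson intervals that cover counting error only) and share of the bases of chromosomes 1 to 19 in the same state (hatched bars), in percent. Lamin B1 only held 28.2% of the sites on 14.8% of the bases, and H3K9me3 only held 12.0% on 19.3%.

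The direction was shared by most chromosomes. The ratio of site share to base share in lamin B1 only was above 1 on 19 of 19 chromosomes, from 1.32 on chromosome 19 to 2.86 on chromosome 6. In H3K9me3 only it was above 1 on 0 of 19, with a highest value of 0.871 on chromosome 16. The state with both marks was less even, with a ratio above 1 on 17 chromosomes and a range from 0.288 on chromosome 7 to 3.70 on chromosome 4. Chromosome 7 held only 1 site in both. The 42 on chromosome 4 included 6 near Zfp981 and 5 near Zfp978. Another 6 lay close together at 99.2 to 116 kb from the start of Vmn1r2, their nearest gene.

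Since gene starts are dense in lamin B1 regions and Foxa2 sites lie near gene starts, the shares were also compared at matched distances from a start. Among the 1110 sites within 5 kb of a protein-coding start, 42.8% were in lamin B1 only (39.9 to 45.7%), against 31.4% of tiles at that distance, a ratio of 1.36. From 5 to 50 kb the ratio was 1.37, with 34.0% of sites and 24.8% of tiles, and from 50 to 500 kb it was 1.72, with 13.4% and 7.82%. Beyond 500 kb only 2 sites were in lamin B1 only. The ratio for H3K9me3 only was 0.610, 0.738 and 0.768 in the bins up to 500 kb, and 1.15 beyond 500 kb, where 40.4% of the 183 sites (33.6 to 47.7%) and 35.3% of tiles were in it. In 4 classes of GC content the ratio ran from 1.41 to 1.88 for lamin B1 only and from 0.612 to 0.790 for H3K9me3 only. Matching for distance or GC content thus made the ratio for lamin B1 only smaller than its overall value of 1.91, but it stayed above 1 at distances up to 500 kb and in each GC class.

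The density of sites changed at the edge of lamin B1 regions. In the 20 kb inside an edge there were 3.60 sites per Mb (3.15 to 4.09), and in the 20 kb outside it 2.02 (1.69 to 2.40). More than 100 kb inside, the density was 4.15 per Mb, and more than 500 kb outside it was 1.46. The tiles just inside and just outside had medians of 30.2 and 35.0 kb to a gene start. At H3K9me3 edges the densities were 2.17 per Mb in the 20 kb inside (1.91 to 2.46) and 1.79 in the 20 kb outside (1.55 to 2.05), so the intervals overlapped, and the density was 1.43 per Mb more than 100 kb inside and 2.24 more than 500 kb outside.

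**Figure D2:**
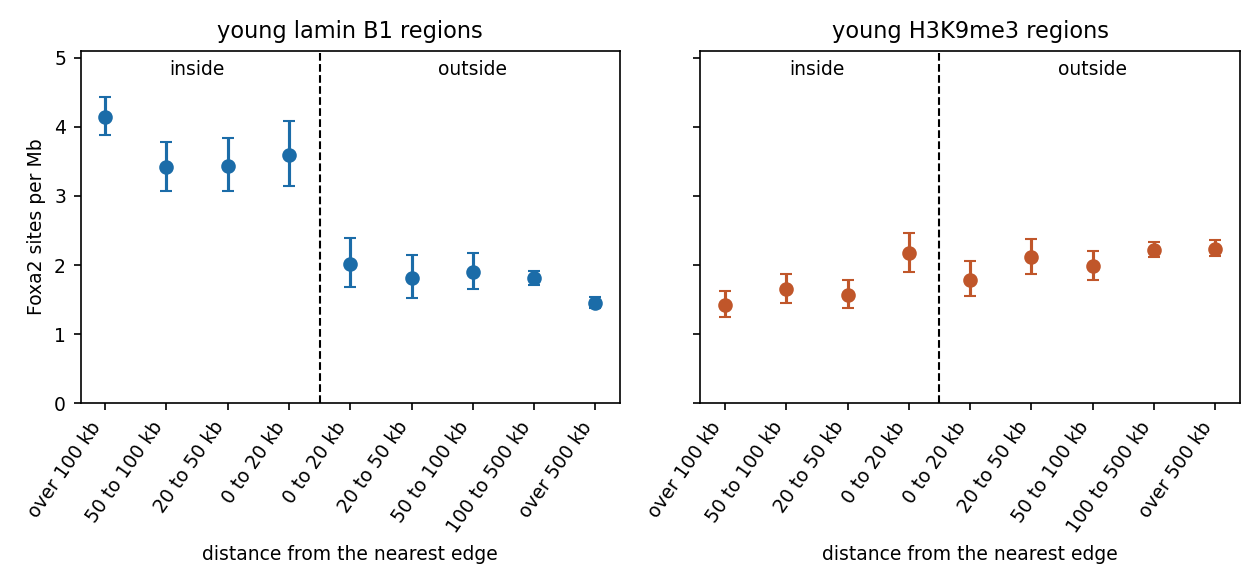
Wild-type Foxa2 sites per Mb in bins of distance from the nearest edge of young lamin B1 regions (left) and of young H3K9me3 regions (right); the dashed line is the edge, and bars are 95% intervals that cover counting error only. Density fell from 3.60 to 2.02 per Mb across the lamin B1 edge, while the bins beside the H3K9me3 edge had overlapping intervals.

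The median distance from a site to the nearest edge was 105 kb in lamin B1 only, 58.8 kb in H3K9me3 only, 29.5 kb in both and 207 kb in neither, and tile midpoints gave 93.1, 58.7, 31.8 and 202 kb. Within 10 kb of an edge, the width of a lamin B1 calling window, were 5.49% of sites in lamin B1 only and 11.2% in H3K9me3 only. The shares were 21.6% in both (17.7 to 26.0%) and 4.59% in neither. In the same order, tiles gave 6.32, 9.48, 17.6 and 4.53%, of which the value for both lay just under the interval. Of the 1621 young lamin B1 regions on these chromosomes, 764 (47.1%) held at least 1 site and 84 held 5 or more. Of the 2781 H3K9me3 regions, 634 (22.8%) held at least 1 site and 16 held 5 or more.

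The sites farthest inside the regions lay near genes with varied roles. For lamin B1 only, after the site near Gm5426, they were near Ube2q1 (853 kb from the edge), which encodes a ubiquitin-conjugating enzyme, near Tubd1, which encodes delta-tubulin (843 kb from the edge), and a pair near Txndc11 (787 and 786 kb). For H3K9me3 only they were near Adgrl2, Pdha2 (505 kb from the edge), the ephrin receptor gene Epha7 (505 kb), and a pair near Marcks (498 and 494 kb), which overlapped mutant sites and held 1 core each. The sites deepest in both marks were near Tspan5 (366 kb), Dctd (232 kb), Trim24 (222 kb), Dusp6 and Ndufaf2 (215 kb), and only the site near Dusp6 held the core.

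The states differed in how far their sites lay from a gene start. The median distance to the nearest protein-coding start was 11.2 kb in lamin B1 only, 28.8 kb in both, 33.2 kb in neither and 72.2 kb in H3K9me3 only. The same order held for tiles, at 21.3, 49.5, 83.2 and 163 kb, and in every state the sites lay closer to starts than the tiles. Within 5 kb of a start were 34.3% of sites in lamin B1 only (31.8 to 36.8%), 19.9% in both (16.2 to 24.3%), 19.4% in neither (17.9 to 21.0%) and 10.7% in H3K9me3 only (8.48 to 13.5%), against 16.5, 8.05, 6.90 and 3.73% of tiles. Relative to neither, lamin B1 only differed by 14.9 percentage points (Newcombe interval 12.0 to 17.9) and H3K9me3 only by -8.65 points (-11.4 to -5.52). For both marks the difference was 0.561 points (-3.50 to 5.17), an interval that includes 0, and its direction depended on the setting. It was 6.69 points (1.65 to 12.0) when starts of all annotated genes were counted, -1.39 (-5.45 to 3.31) without sites in runs, which are described further on, and -2.24 (-6.17 to 2.32) without sites of which 80% or more was repeat-masked.

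Intergenic midpoints made up 35.2% of sites in lamin B1 only, 48.1% in neither, 56.1% in both and 66.6% in H3K9me3 only, and introns held 51.8, 44.1, 35.3 and 27.9%. Exons held 13.0% of sites in lamin B1 only and 5.45% in H3K9me3 only, against 8.80 and 1.90% of tiles. More than 500 kb from any protein-coding start were 12.6% of the H3K9me3 only sites, against 2.70% in both, 3.78% in neither and 0.144% in lamin B1 only.

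Sites in lamin B1 only were slightly narrower. Their median width was 909 bp (interval of the median 877 to 938, quartiles 600 and 1180), compared with 941 bp in neither (919 to 973), 983 bp in both (908 to 1033) and 1004 bp in H3K9me3 only (952 to 1031). The intervals of lamin B1 only and H3K9me3 only did not overlap, while those of lamin B1 only and neither did. The state with both marks had the largest share of wide sites, with 7.01% at 2000 bp or more, against 3.07% in H3K9me3 only, 2.02% in neither and 1.44% in lamin B1 only. Median GC content was 47.6% in lamin B1 only, 45.6% in both, 45.4% in neither and 43.5% in H3K9me3 only, higher in each state than in its tiles.

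**Figure D3:**
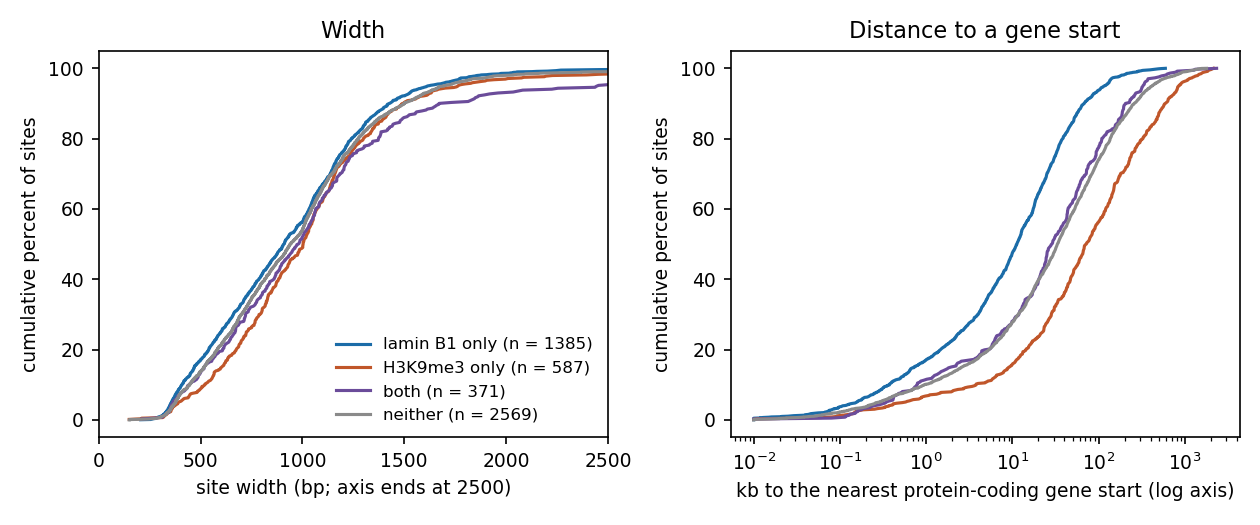
Cumulative percent of wild-type Foxa2 sites by width in bp (left, with the axis ending below the widest sites) and by distance from the midpoint to the nearest protein-coding gene start in kb (right, log axis, distances under 0.01 kb drawn at 0.01), with 1 line per young chromatin state. The width lines lie close together apart from the wide sites of the state with both marks, and the distance lines run from lamin B1 only (median 11.2 kb) to H3K9me3 only (median 72.2 kb).

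The widest sites lay outside the regions. Of the 7 widest, 6 formed a block at chr1:88211375-88303473 across Ugt1a1, which encodes the bilirubin-conjugating enzyme, Mroh2a, Hjurp and Trpm8, with widths from 8179 to 33618 bp, and all 6 overlapped mutant sites. The other one, of 17459 bp, covered part of Mat1a, the liver enzyme that makes S-adenosylmethionine, and did not overlap a mutant site. The widest site in a marked region was 7851 bp, in both marks near the zinc finger gene Zfp978.

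The forkhead core was present in more sites than tiles in every state, and the states differed from one another by little. It was found in 30.3% of sites in lamin B1 only (419 of 1385, 27.9 to 32.7%), where 12.6% of tiles held it. In H3K9me3 only, 25.6% of sites (150 of 587, 22.2 to 29.2%) and 14.3% of tiles did. In both, 24.8% of sites (92 of 371, 20.7 to 29.4%) and 13.7% of tiles held the core, and in neither 27.4% (704 of 2569, 25.7 to 29.2%) and 13.4%. In windows of a site's own width 5 kb to either side, the core was present in 10.2 to 16.4%. The difference from neither was 2.85 percentage points for lamin B1 only (-0.0950 to 5.84), -1.85 for H3K9me3 only (-5.64 to 2.20) and -2.61 for both (-7.09 to 2.33), and all 3 intervals include 0. With TGTTTAC or TGTTTGC as the word, the difference for both marks was -6.61 points (-11.8 to -1.21).

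**Figure D4:**
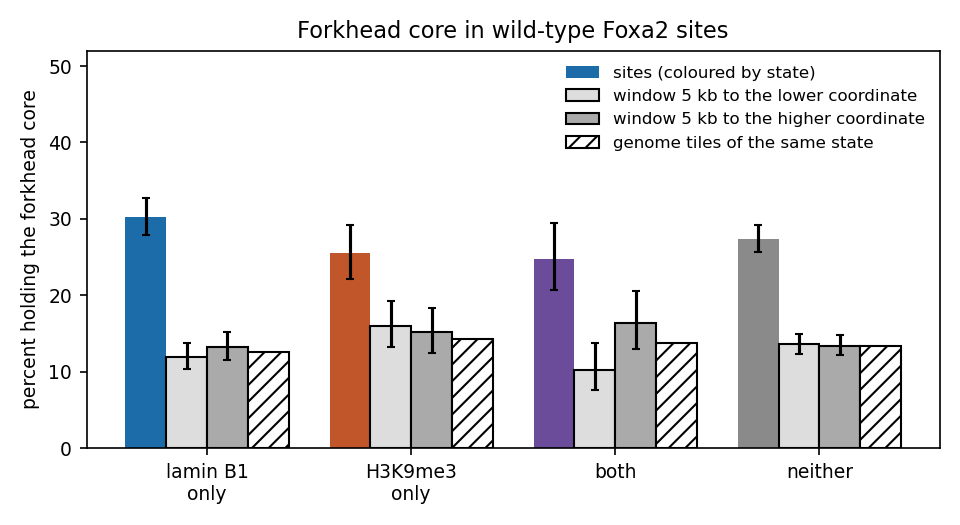
Percent of wild-type Foxa2 sites that hold the forkhead core in each young chromatin state (coloured bars), of windows of the same width 5 kb away on either side (grey bars), and of genome tiles of the same state (hatched bars); error bars are 95% Wilson intervals and cover counting error only. Sites held the core in 24.8 to 30.3%, windows in 10.2 to 16.4% and tiles in 12.6 to 14.3%.

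Among sites with the core, it was within 100 bp of the midpoint in 43.0% in lamin B1 only, 40.1% in neither, 35.3% in H3K9me3 only and 34.8% in both. At least 2 cores were found in 42, 103, 30 and 13 sites of these states, and the most in 1 site was 10, in neither.

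The difference in core share was not the same in all strata. At 50 to 500 kb from a start, the core was present in 36.0% of the 211 lamin B1 only sites and 25.9% of the 957 sites in neither, a difference of 10.1 points (3.30 to 17.3), but the same difference was -2.70 (-8.41 to 3.05) within 5 kb and 1.68 (-2.66 to 6.08) from 5 to 50 kb. Within 5 kb of a start it was present in 14.9% of the 74 sites in both and 31.1% of the 498 in neither, a difference of -16.3 points (-23.9 to -5.69), while from 50 to 500 kb this difference was 1.01 (-6.45 to 9.64). When sites of which 80% or more was repeat-masked were left out, 61 sites in both remained within 5 kb. All 92 sites in both with the core remained, so those left out held none. The difference without them was not computed. Inside lamin B1 regions, with or without H3K9me3, 32.4% of the 853 sites at least 100 kb from an edge held the core, against 24.1% of the 547 sites under 50 kb from it, a difference of 8.22 points (3.38 to 12.9). The 356 sites from 50 to 100 kb inside, left out of this difference, held it in 28.9%. Neighbouring bins outside also differed, with 17.0% of the 141 sites at 20 to 50 kb and 28.9% of the 218 sites at 50 to 100 kb. In tiles the core share was 12.4% at least 100 kb inside and 13.3% within 20 kb of the edge. These strata were read after the values were seen, among 9 computed differences over distance bins and 1 over depth. Core shares by site width, by gene feature and by distance from an edge had also been seen, so more strata were open to choice.

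Words of other liver factors were compared in the same way, on both strands and over the whole site. The HNF4 word CAAAGTC was present in 15.8% of sites in lamin B1 only (14.0 to 17.8%), 17.7% in H3K9me3 only, 18.1% in both and 19.2% in neither (17.8 to 20.8%), and in 13.2 to 13.8% of tiles. In the same order of states, the HNF1 word GTTAAT was present in 24.3, 32.2, 31.0 and 30.0% of sites. Tiles held it in 27.3, 35.4, 31.5 and 32.6%. The GATA word AGATAA was less frequent in sites than in tiles in every state, at 38.2 and 42.4% in lamin B1 only and 46.0 and 51.7% in H3K9me3 only. This word is rich in A and T, and its share moved with the GC content of the states, whose part in these differences was not tested.

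The Zmpste24 mutant gives a second set of Foxa2 calls, from other livers, that took no part in placing the sites. A mutant site overlapped 28.5% of wild-type sites in lamin B1 only (395 of 1385, 26.2 to 31.0%), 31.5% in both (117 of 371, 27.0 to 36.4%), 28.1% in neither (721 of 2569, 26.4 to 29.8%) and 18.1% in H3K9me3 only (106 of 587, 15.2 to 21.4%). H3K9me3 only differed from neither by -10.0 points (-13.4 to -6.28). For lamin B1 only the difference was 0.454 points (-2.46 to 3.43) and for both marks 3.47 points (-1.38 to 8.66). These 2 differences turned in direction under another setting, to -0.174 points (-2.71 to 2.44) for lamin B1 only at a reciprocal overlap of 50% and to -0.902 (-5.73 to 4.39) for both marks without sites in runs, where 26 of the 36 sites in both were called in the mutant. The lower share in H3K9me3 only was also found from 5 to 50 kb from a start (21.2% against 30.3%, difference -9.06 points, -15.1 to -1.94) and from 50 to 500 kb (18.1% against 25.3%, -7.21 points, -12.2 to -1.53). Within 5 kb, where H3K9me3 only had 63 sites, the difference was -5.75 points (-16.1 to 6.94). For lamin B1 only the difference from neither was -5.15 points (-10.9 to 0.621) within 5 kb, -2.74 (-7.04 to 1.66) from 5 to 50 kb and 8.84 (2.14 to 16.0) from 50 to 500 kb, so its direction was not the same in all bins. The bins were read after the values were seen.

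Sites that were also called in the mutant held the core more often in each state. In lamin B1 only the shares were 46.3% with and 23.8% without a mutant call, a difference of 22.5 points (16.9 to 28.0). In H3K9me3 only they were 45.3 and 21.2% (24.1 points, 14.1 to 34.1), in both 35.0 and 20.1% (15.0 points, 5.30 to 25.0), and in neither 43.8 and 21.0% (22.8 points, 18.8 to 26.9). Without a mutant call, the share was still above the 12.6 to 14.3% of tiles in each of the states.

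The old-liver lists show where the same positions lay at 21 months. Of the 1756 sites in young lamin B1 regions, 84.2% (82.4 to 85.8%) were in an old lamin B1 region, against 71.2% of tiles. For those within 5 kb of a start the share was 89.1% (86.2 to 91.4%), an interval that includes the 87.4% of tiles. From 5 to 50 kb it was 87.0%, against 79.2% of tiles, and from 50 to 500 kb 71.8%, against 54.1%. Of the 3156 sites outside young lamin B1 regions, 52.9% (51.2 to 54.7%) were in an old one, against 31.0% of tiles. Outside young lamin B1 regions, the higher share of sites held at each distance from a start up to 500 kb. It was 65.8% of sites and 50.8% of tiles within 5 kb, 63.0 and 47.5% from 5 to 50 kb, and 44.1 and 27.1% from 50 to 500 kb. Of the 958 sites in young H3K9me3 regions, 52.1% (48.9 to 55.2%) were in an old H3K9me3 region, against 42.3% of tiles. Of those outside, 16.1% (14.9 to 17.2%) were in an old H3K9me3 region, against 20.5% of tiles. Old lamin B1 regions covered 930 Mb of chromosomes 1 to 19 and young ones 466 Mb, a difference that the values for tiles share.

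**Figure D5:**
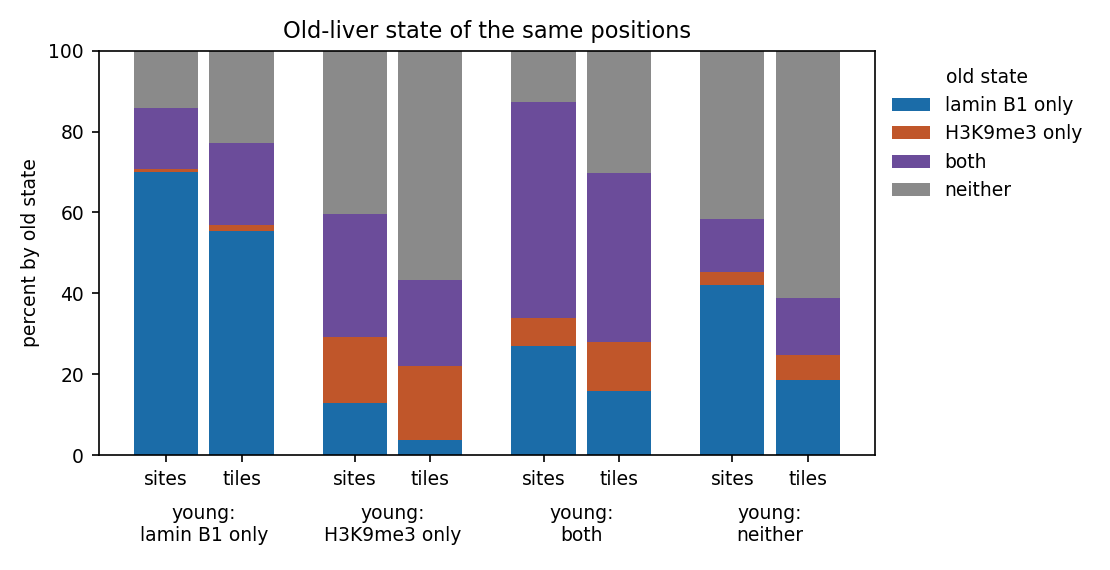
Old-liver state (colours, stacked to 100%) of wild-type Foxa2 sites and of genome tiles, grouped by their young state. Sites kept lamin B1 only in 70.1% against 55.3% of tiles, and sites in neither when young were in lamin B1 only in old liver in 42.2% against 18.7% of tiles.

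Among the young states, H3K9me3 only kept its class least, in sites and in tiles alike. Of the 587 sites, 16.5% (13.7 to 19.7%) stayed in H3K9me3 only, an interval that includes the 18.1% of tiles. In old liver 30.3% were in both, 12.8% in lamin B1 only and 40.4% in neither, against 21.4, 3.85 and 56.6% of tiles. Of the sites in both, 53.4% stayed in both, against 41.6% of tiles. Of the sites in neither, 41.6% stayed in neither, against 61.2% of tiles.

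Each site was assigned to the protein-coding gene with the nearest start. Lamin B1 only sites were nearest to 1111 genes (5.35% of 20780), H3K9me3 only sites to 458 (2.20%), sites in both to 271 (1.30%) and sites in neither to 1902 (9.15%). Together they were nearest to 3557 genes (17.1%). Lists of genes with textbook roles in liver were then read against these percentages. As ChIP sites carry no level of expression, cell types can be named only by which marker genes lie near a site. Of 8 hepatocyte markers, 6 were nearest to a site, and of 16 markers of Kupffer, endothelial, stellate and bile duct cells, 4 were.

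Genes of hepatocyte transcription factors were near sites in lamin B1 only more than any other list. Of 15 such genes 12 were nearest to a site in some state, and 9 (60.0%) to one in lamin B1 only, where the background is 5.35%. The starts of 11 of the 15 genes (73.3%) lay in lamin B1 only, against 33.1% of all genes, so the position of the genes moved with the count. Among the 9 genes were Cebpa, Foxa1, Gata6, Hnf4a, Nr5a2, Onecut2 and Tbx3. Foxa2 itself had 5 sites, all in neither, and its nearest site had its midpoint 0.136 kb downstream of the gene start.

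Cebpa, which encodes a factor of hepatocyte differentiation and metabolism, had 4 sites in lamin B1 only, of which 3 held the core and 2 overlapped mutant sites. They lay between 0.547 and 25.1 kb from its start. The gene of Foxa1, a factor of the same subfamily as Foxa2, had 2 sites, of which the farther, 102 kb from the start, held 2 cores and was also called in the mutant. In Hnf4a, the nuclear receptor that keeps hepatocyte identity, 1 site of 450 bp lay in an intron 34.0 kb from the start, without the core and with a mutant call. Nr5a2 had 3 sites in lamin B1 only and 1 in both. Onecut1 had 2 sites in both and 3 in neither, and Tbx3 had 1 in each of lamin B1 only, H3K9me3 only and neither.

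Among the listed genes in marked regions, 7 had a site with the core within 5 kb of the start, where a motif match, a called site and a gene start fall together. The stretches below, from 5 of these genes, were chosen after the sites were seen and show the core in capitals on the plus strand of GRCm38.
Apoa2, lamin B1 only, chr1:171224950-171225010: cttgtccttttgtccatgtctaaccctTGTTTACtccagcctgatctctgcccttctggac
Slc27a5, lamin B1 only, chr7:12995987-12996047: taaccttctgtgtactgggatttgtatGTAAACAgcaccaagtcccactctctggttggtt
Ehhadh, lamin B1 only, chr16:21782998-21783058: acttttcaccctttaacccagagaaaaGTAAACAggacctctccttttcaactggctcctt
Cyp2c37, H3K9me3 only, chr19:39989561-39989621: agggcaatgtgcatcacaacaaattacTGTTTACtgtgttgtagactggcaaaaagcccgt
Cyp2d26, H3K9me3 only, chr15:82796154-82796214: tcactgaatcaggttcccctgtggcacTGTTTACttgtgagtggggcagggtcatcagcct

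The sites of Apoa2, Slc27a5, Ehhadh and Cyp2c37 overlapped mutant sites, and that of Cyp2d26 did not. Apoa2 encodes an apolipoprotein of HDL, and its site, 322 bp wide, had its midpoint at -0.046 kb from the gene start, where negative values are upstream. Slc27a5, which encodes the bile acid CoA ligase, had an intronic site 2.11 kb downstream of its start. The site of Ehhadh, an enzyme of peroxisomal fatty acid oxidation, was intronic, 4.82 kb from the start and 13.0 kb from the lamin B1 edge. In H3K9me3 only, the sites of the cytochrome P450 genes Cyp2c37 and Cyp2d26 were intergenic at -2.73 and -2.02 kb, and 50.3 and 73.7 kb inside their regions.

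Genes of fatty acid oxidation and ketogenesis were near sites in both lamin B1 only and H3K9me3 only. Of 18 genes, 11 were nearest to a site, 4 in lamin B1 only (Acot1, Cpt1a, Ehhadh and Hadha), 3 in H3K9me3 only (Acadl, Bdh1 and Hadh) and 4 in neither. Over all genes, 17.1% were nearest to a site, 5.35% in lamin B1 only, 2.20% in H3K9me3 only and 9.15% in neither. Cpt1a, which encodes the carnitine transferase that admits fatty acids to mitochondria, had a 404 bp site at -2.05 kb without the core and with a mutant call. Hadh had a site with the core at -11.2 kb, 76.7 kb inside an H3K9me3 region, and also called in the mutant. Of 25 genes of lipid synthesis and storage 10 were nearest to a site, 8 of them in neither, and 2 in lamin B1 only, Elovl6 and Mlxipl, neither of whose sites held the core or had a mutant call. The starts of 61.1% of the oxidation genes and 28.0% of the synthesis genes lay in lamin B1 only, against 33.1% of all genes. In H3K9me3 only lay the starts of Acadl, Bdh1 and Hadh, 16.7% of the oxidation genes, against 8.81% of all genes. The position of the genes thus moved with these counts too. The difference between the lists was not tested.

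Genes of bile acid and cholesterol metabolism were nearest to a site in 10 of 18 cases, with 4 in lamin B1 only, Abcg5, Hmgcs1 and Slc27a5 among them, 1 in H3K9me3 only and 5 in neither. Abcg5, which encodes a sterol transporter, had 1 lamin B1 only site at -6.50 kb that held the core and was called in the mutant. Of 13 apolipoprotein genes, 6 were nearest to a site, with Apoa2 and Apof in lamin B1 only and 4 in neither. Of 21 nuclear receptor genes 7 were, with 3 in lamin B1 only, Nr0b2 and Nr1i2 among them, Ppara in H3K9me3 only, and 4, Ppara again among them, in neither. Ppara, the fatty acid sensing receptor, had 2 intronic sites in H3K9me3 only, 12.6 and 36.8 kb from its start, of which the nearer held the core. Of all protein-coding genes, 17.1% were nearest to a site, 5.35% to one in lamin B1 only, 2.20% to one in H3K9me3 only and 9.15% to one in neither. Starts in lamin B1 only made up 33.3% of the bile acid and cholesterol list, 23.1% of the apolipoproteins and 47.6% of the nuclear receptors. The share over all genes was 33.1%.

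The cytochrome P450 genes, which oxidise drugs and steroids and lie in clusters, had 13 of 35 members (37.1%) nearest to a site, against 17.1% of all genes. In H3K9me3 only there were 4 (Cyp2c37, Cyp2c38, Cyp2d26 and Cyp2d9), in lamin B1 only 2 (Cyp17a1 and Cyp2f2), in both 1 (Cyp3a41a), and in neither 6. The last 3 counts are 5.71, 2.86 and 17.1% of the list, against 5.35, 1.30 and 9.15% of all genes. The 4 in H3K9me3 only are 11.4% of the list, against 2.20% of all genes, and the starts of 22.9% of the list lay in H3K9me3 only, against 8.81% of all genes. These genes have near-identical copies, and only reads with a single alignment had been used.

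Genes of acute phase and coagulation proteins, secreted by hepatocytes, were near sites mostly outside both marks. Of 28 genes on chromosomes 1 to 19, 13 were nearest to a site, 0 in lamin B1 only, 3 in H3K9me3 only (F11, Hpx and Serpina3k) and 10 in neither. Over all genes, only 5.35% were nearest to a site in lamin B1 only and 2.20% to one in H3K9me3 only. The starts of 24 of the 28 (85.7%) lay in neither, against 53.2% of all genes. In lamin B1 only lay 7.14% of the starts, against 33.1% of all genes, so the position of the genes moved with the count. The site of Hpx, which encodes the haem carrier hemopexin, was at -0.136 kb and only 0.272 kb inside an H3K9me3 edge. Its state thus depends on exactly where that edge was called. Of 15 genes of gluconeogenesis and glucose handling, 7 were nearest to a site and all 7 had one in neither, with Insr and Tat also having one in lamin B1 only. The starts of 53.3% of these 15 genes lay in neither. Over all genes, 17.1% were nearest to a site in some state and 9.15% to one in neither. Among hepatocyte markers, Hnf4a, Tat and Ttr had a lamin B1 only site, and the one of Ttr, which encodes transthyretin, lay in an exon at 0.005 kb and was 15.3 kb inside the edge.

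Several genes were nearest to many sites, with or without the core. In lamin B1 only, Atg7, which encodes an autophagy enzyme, was nearest to 8 sites, 0 of them with the core and 0 called in the mutant. The antiproliferative gene Btg1 had 7, of which 4 held the core and 3 were called in the mutant, and Hmgcs1, which encodes a cytosolic enzyme of cholesterol synthesis, had 7, with 1 core site and 1 mutant call. In H3K9me3 only Fndc1 had 6 sites, 1 with the core and 0 called in the mutant. It was followed by the transporter gene Abca8b (1 core site and 3 mutant calls) and Adgrl2 (1 and 1) with 4 sites each, a number that Cdh20, Cited2 and Kl shared, with 0 mutant calls each. In both, they were Disp1 with 8 sites (0 with the core and 0 in the mutant), the zinc finger gene Zfp981 with 7 (0 and 2) and the vomeronasal receptor gene Vmn1r2 with 6 (0 and 3). The sites of Vmn1r2 lay at chr4:3049983-3069980, 99.2 to 116 kb from its start, with a median of 46.4% repeat-masked bases. In neither, Sult1c1, a sulfotransferase gene, had 12 sites without the core or a mutant call, while the insulin receptor substrate gene Irs2 had 7, of which 6 held the core and 5 were called in the mutant, and Lifr had 7, with 3 and 2.

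Runs were defined, after these genes were seen, as 5 or more sites with neighbouring midpoints at most 20 kb apart. By this measure the block of wide sites on chromosome 1 was not a run, although its sites lay close together. The runs numbered 15 and held 99 sites. The core was present in 16.2% of these (10.2 to 24.7%), against 28.0% of the sites outside runs (26.8 to 29.3%). Core counts of several of these genes had been seen first and the sites of a run are neighbours, so this comparison is descriptive only. They made up 9.70% of the sites in both, 2.45% in lamin B1 only, 0.973% in neither and 0.681% in H3K9me3 only. The run with the most sites, 13 at the start of the assembled chromosome 9 near Gm11168, chr9:3000000-3038401, had a median of 95.8% repeat-masked bases, 0 cores and 12 mutant calls, and all 13 sites were in both. In 3 runs, near Atg7, Sult1c1 and Akirin2, none of 17 sites held the core or was called in the mutant, and the median repeat content was 16.5% near Atg7 and 18.3% near Akirin2. Without the runs, 26.6% of sites in both held the core and 27.2% were called in the mutant, in place of 24.8 and 31.5%. Whether mapping, copy number or chromatin accounts for the runs was not tested.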

How the data were processed

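The authors used BWA for alignment to mm10 and Picard to take out duplicates, and pooled the replicates of a condition once reads with a single alignment had been chosen. Lamin B1 regions were called with Epic in windows of 10 kb, and Foxa2 sites with PeakSeq against input reads, which came from a mix of young and old livers. Reads of the mutant were thinned to match the wild type. The caller of the H3K9me3 regions is not given in the methods. Their lists hold 2784 young and 2496 old regions, fewer than the study counts, with the age known from the list's name alone. The deposited lists hold only the start and end of each region, and read totals were stated by the study only for the pooled replicates and are not used here. H3K9me2 was not analysed here.

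Each site took the state of its midpoint. Gene starts came from GENCODE vM21 and sequence from GRCm38.p6, the same assembly as mm10, soft-masked for repeats. Background values are from tiles of 940 bp without assembly gaps, placed by their midpoints. Shares have Wilson intervals and differences Newcombe intervals at 95%. No test over samples exists for merged lists. Words were searched on both strands, and overlap with a mutant site means at least 1 bp. Named genes are those nearest to the 5 sites farthest from an edge per marked state, the 3 nearest to the most sites per state, and the listed genes near a site in a marked state. Some listed genes are counted but not reported by name here. Members and lists were chosen with earlier results of these data known. The code was checked on simulated data and used Python 3.11.15, numpy 2.4.6, pandas 2.3.3, scipy 1.17.1, statsmodels 0.14.6 and matplotlib 3.10.9.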

Additional observations from a re-analysis of the deposited data

Results flagged for a closer look

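Outside chromosomes 1 to 19, wild-type Foxa2 sites were called in data that entered no comparison. There were 38 sites on chromosome X, 6 on chromosome Y and 4 on the mitochondrial genome.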

How the results depend on the processing

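No paired analysis was possible because the lists hold merged calls without replicate columns, which is also why leaving out a replicate or raising a score threshold was not possible. Of 124 values under alternatives, 101 moved by less than their counting interval, and 23 moved by more. Differences from neither turned in direction in 4 cases, each with an interval that includes 0 in the main and the other setting. Within 5 kb of a start, the difference for both marks went from 0.561 points to -1.39 without runs and -2.24 without repeat-rich sites. For mutant calls it went from 3.47 to -0.902 points without runs, and for lamin B1 only from 0.454 to -0.174 at 50% reciprocal overlap. In the order lamin B1 only, H3K9me3 only, both and neither, the forkhead core was present in 12.5, 8.86, 8.63 and 10.5% of 200 bp windows around the midpoint, and TGTTTAC or TGTTTGC in 46.9, 41.1, 38.5 and 45.2% of sites. Among sites no wider than the median, the core share was 33.6% in lamin B1 only and 30.0% in neither. Sites with the core had a median width of 828 bp in lamin B1 only and 886 bp in neither. With all annotated genes, 43.9, 20.6, 35.8 and 29.2% of sites lay within 5 kb of a start, and with starts of protein-coding transcripts 41.9% in lamin B1 only, 24.8% in both and 24.3% in neither. A reciprocal overlap of 50% left 19.1, 12.4, 19.4 and 19.3% of sites called in the mutant. The difference in core share between lamin B1 only and neither had an interval above 0 in 2 settings, without sites within 10 kb of an edge (3.05 points, 0.0214 to 6.14) and without runs (3.02 points, 0.0414 to 6.05). The alternatives without runs and without sites of 80% or more repeats were chosen after seeing the data.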
